A study of Mus musculus with 4 samples.

Results

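Genes of cholesterol synthesis, uptake and efflux were followed in mature fat cells of 2 depots. The mice were of the C57BL/6 inbred strain and 30 days old. The group labelled dWAT holds 2 libraries of dermal adipocytes from the dorsal skin, and the group labelled sWAT holds 2 libraries of inguinal adipocytes. No genotype or treatment is named for either group, both were prepared by enzymatic digestion and flotation, and the labels do not say how many animals gave a library or whether replicates came from separate animals. The members were chosen by name as 31 genes, all of which were found among the 18781 genes of the deposited table. They comprised 17 genes of synthesis, 4 regulators, and 10 genes of uptake, intracellular transport, storage and efflux. All 31 passed the expression filter, which asked for 1 CPM or more in 2 or more libraries.

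Cells build cholesterol from acetyl-CoA through mevalonate, isoprenoid diphosphates, squalene and lanosterol. When sterol in the endoplasmic reticulum is low, SCAP escorts the transcription factor encoded by Srebf2 to the Golgi for activation, and it then drives the genes of the pathway. INSIG proteins hold the complex back when sterol is plentiful. Cholesterol also enters by lipoprotein uptake, is carried out of lysosomes by the NPC proteins, is esterified by SOAT1, and leaves through ABC transporters whose genes are targets of the oxysterol-sensing liver X receptors. Adipocytes keep much of their cholesterol unesterified at the surface of the lipid droplet.

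The promoters of synthesis genes are known for sterol regulatory elements and for CCAAT boxes, which bind the factor NF-Y that cooperates with sterol regulatory element binding proteins. Promoter sequence was found in the RefSeq table for GRCm38.p6 for 24 of the 31 genes, and the 250 bases upstream of each start were searched on both strands. The letters CCAAT occurred upstream of 13 of 14 synthesis genes, 3 of 4 regulators and 2 of 6 uptake and efflux genes, where 37.5% of all genes in the table and 33.8% of all windows held them. The sterol element letters TCACNCCAC occurred upstream of 1 member, Hmgcs1, and in 1.05% of all windows. A match is a string of letters and not a measured binding site. Upstream windows are shown for Hmgcs1, which held the sterol element, for Hsd17b7 and Soat1, which differed between the depots, and for Mvk, whose difference between depots had the opposite sign to most synthesis genes. The Hmgcs1 window lies at chr13:119690101-119690350 on the plus strand, that of Hsd17b7 at chr1:169969206-169969455 on the minus strand, that of Mvk at chr5:114444019-114444268 on the plus strand and that of Soat1 at chr1:156474329-156474578 on the minus strand. All run 5′ to 3′ toward the start. Capitals mark CCAAT on either strand and, in Hmgcs1, the sterol element.
Hmgcs1: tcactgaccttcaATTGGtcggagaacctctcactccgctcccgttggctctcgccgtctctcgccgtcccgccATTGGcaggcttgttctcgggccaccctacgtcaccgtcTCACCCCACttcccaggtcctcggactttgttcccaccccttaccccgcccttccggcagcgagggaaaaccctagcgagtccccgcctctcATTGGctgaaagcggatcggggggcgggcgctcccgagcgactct
Hsd17b7: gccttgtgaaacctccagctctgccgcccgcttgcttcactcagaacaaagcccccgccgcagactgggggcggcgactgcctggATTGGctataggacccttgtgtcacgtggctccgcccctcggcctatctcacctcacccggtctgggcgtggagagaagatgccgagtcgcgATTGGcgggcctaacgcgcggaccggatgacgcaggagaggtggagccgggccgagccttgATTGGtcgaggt
Mvk: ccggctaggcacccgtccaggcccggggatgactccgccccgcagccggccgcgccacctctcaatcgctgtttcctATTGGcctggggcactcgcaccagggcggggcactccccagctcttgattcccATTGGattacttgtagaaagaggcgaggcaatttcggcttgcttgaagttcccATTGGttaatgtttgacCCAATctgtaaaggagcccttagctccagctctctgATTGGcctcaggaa
Soat1: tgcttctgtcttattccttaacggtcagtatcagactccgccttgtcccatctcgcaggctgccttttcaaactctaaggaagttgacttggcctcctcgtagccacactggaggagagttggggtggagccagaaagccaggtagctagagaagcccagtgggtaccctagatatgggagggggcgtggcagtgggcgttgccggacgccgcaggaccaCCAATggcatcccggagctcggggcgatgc
Mvk held 5 CCAAT strings, Hmgcs1 and Hsd17b7 held 3 each, and Soat1 held 1.

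The libraries held 10127125 to 12730013 reads assigned to genes, and a member had between 41 and 54255 reads in a library. Values are normalized CPM, reads scaled to library size by the authors, and each log2 fold change sets dermal against inguinal libraries after adding 0.5 CPM, which understates the change of low genes. All 12 adipocyte markers, led by Cfd, Fabp4 and Plin4, were tested, and together they took 4.21% to 4.50% of reads in every library. Of these, 2 (Plin1 and Lep) passed as higher in dermal libraries and 9 estimates were positive, while Fabp4 stood at -0.67 and did not pass. Markers of other cells differed between the depots. Of 15 macrophage markers in the table, led by Mrc1, Lyz2 and C1qa, 14 were tested and 11 rose in dermal libraries, and their summed level was 1787 and 1678 CPM in the dermal libraries against 617 and 581 CPM in inguinal adipocytes. All 11 endothelial markers, led by Cdh5, Pecam1 and Kdr, were higher in inguinal libraries, with sums of 1662 and 2550 CPM against 465 and 518 CPM in dermal libraries. All 7 red blood cell markers, led by Hbb-b1, Hbb-bs and Hba-a1, were also higher in inguinal libraries. Hbb-b1 and Hbb-bs had the same reads, 381 and 193 in dermal and 968 and 1546 in inguinal libraries, and are not separate measurements. None of these macrophage, endothelial or red cell markers was at 0 reads in all libraries.

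Between the depots, 3 of the 31 genes passed the test. Hsd17b7 and Fdft1, enzymes of synthesis, were higher in inguinal libraries, and Soat1, which esterifies cholesterol for storage, was higher in dermal libraries, each by about a factor of 2. The 3 genes made up 9.68% of the members, where 16.4% of the 12797 tested genes passed (limma, two-sided, Benjamini-Hochberg adjusted p below 0.05). By direction, 1 member passed as higher in dermal libraries, against 7.56% of all tested genes, and 2 as higher in inguinal libraries, against 8.8%. Values did not overlap between depots for 14 members, or 45.2%, against 61.8% of all tested genes. Of these, 9 were higher in dermal libraries (31.6% of all tested genes were) and 5 in inguinal libraries (30.1%). The p-values reflect the spread between the libraries alone, which may be technical. A fit with a library left out keeps a single library in that depot, so its spread comes from the other depot alone. In bulk RNA, fewer cells of a type and less RNA per cell cannot be told apart. The plot of fitted differences sets the 3 calls beside the wide intervals of most synthesis genes.

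**Figure D1:**
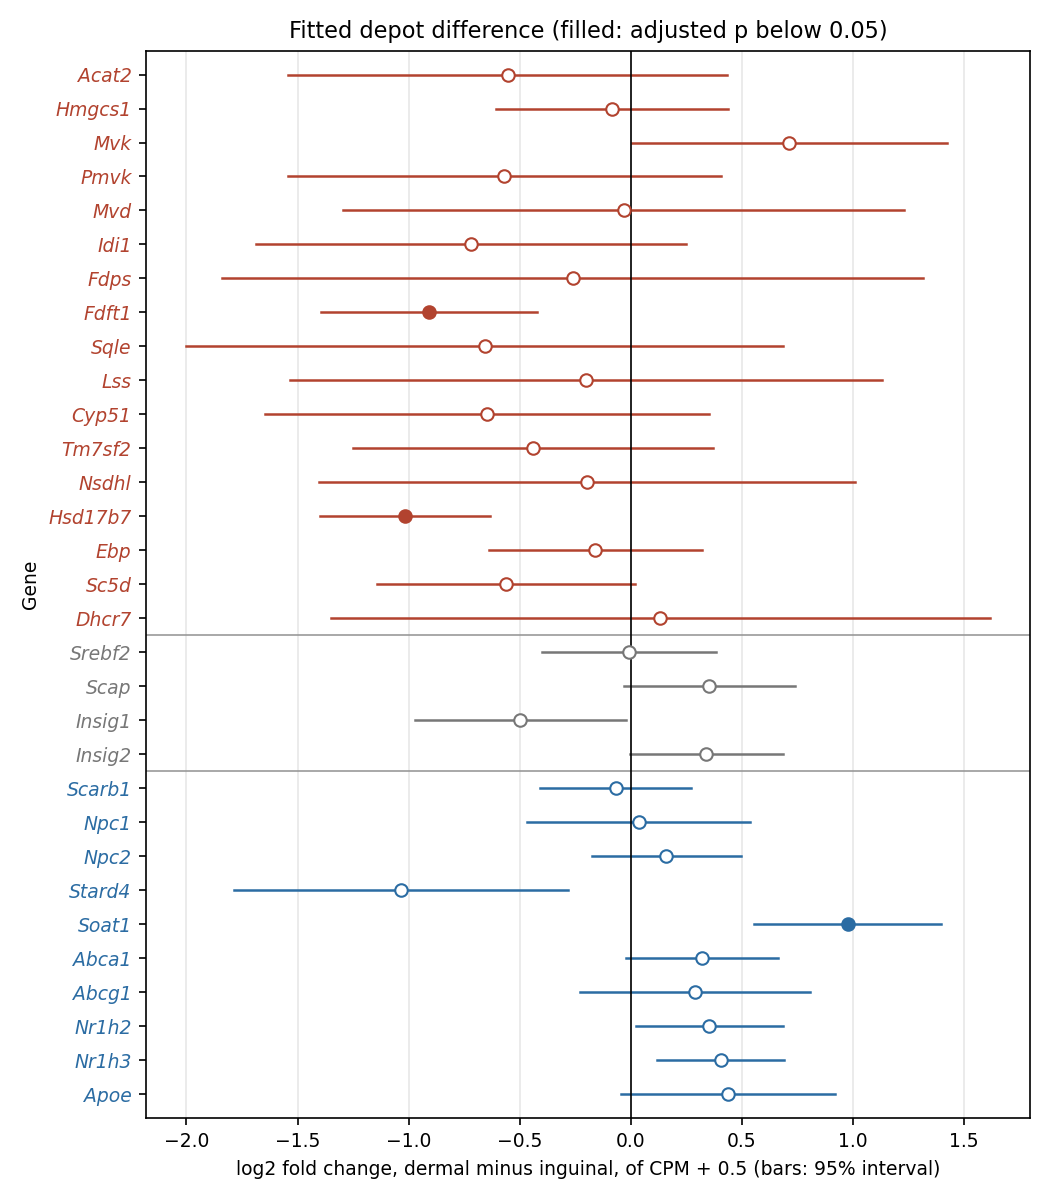
Fitted log2 fold change, dermal minus inguinal, of each of the 31 genes on the horizontal axis, with 95% intervals of the limma fit as bars (n = 2 libraries per depot). Filled points passed at an adjusted p below 0.05, namely Fdft1 and Hsd17b7 below 0 and Soat1 above 0.

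Hsd17b7 encodes a keto reductase that acts in the removal of the methyl groups of lanosterol and also reduces estrone. It measured 11.3 and 11.0 CPM in dermal replicates 1 and 2 and 23.1 and 23.1 CPM in inguinal replicates 1 and 2. The depots were separate and the libraries of one depot nearly equal, from 116 to 273 reads each. The log2 fold change was -1.02 (SE 0.16, adjusted p = 0.00997), but it did not pass when dermal replicate 2 was left out (-0.999, adjusted p = 0.0528). The gene lies on chromosome 1, 169949535 to 169969241, of GRCm38 in GENCODE M21.

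Fdft1 encodes squalene synthase, the first enzyme committed to sterols. It measured 30.8 and 30.3 CPM in dermal adipocytes against 70.1 and 47.5 CPM in inguinal adipocytes. Both inguinal values lay above both dermal values, and the inguinal libraries differed from each other more than the dermal ones. The log2 fold change was -0.91 (SE 0.20, adjusted p = 0.0290), and it did not pass when dermal replicate 1 (adjusted p = 0.0891) or dermal replicate 2 (0.0931) was left out, or when the fit had no intensity trend (0.0617). Without inguinal replicate 1 the log2 fold change was -0.63, and without inguinal replicate 2 it was -1.19. Fdft1 (chromosome 14, 63145150 to 63179578) shares 774 exonic bases with Ctsb on the opposite strand. Ctsb, a lysosomal protease gene, measured 2027 and 1968 CPM in dermal adipocytes against 1793 and 1311 CPM in inguinal adipocytes. Whether counting used strand is not stated in the sources used here, and reads of the overlap cannot be assigned with certainty.

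Soat1 measured 22.9 and 25.6 CPM in dermal adipocytes against 11.1 and 13.2 CPM in inguinal adipocytes. The depots did not overlap, and the difference was similar within each replicate number, at 1.02 for number 1 and 0.93 for number 2 on the log2 scale. The fit gave 0.98 on the log2 scale (SE 0.18, adjusted p = 0.0158), but it did not pass when dermal replicate 1 (0.0574) or dermal replicate 2 (0.0977) was left out. Soat1 lies on chromosome 1, 156424525 to 156474331. Macrophages also express Soat1, and the macrophage markers above were higher in the same libraries. The gene is also used as a marker of sebocytes. Of 12 sebocyte markers, a list that includes Soat1 itself, 6 were tested. Soat1 alone passed by limma. The 6 had 3 positive estimates, that of Soat1 among them, and 3 negative ones, with a median of -0.15. Over all 12, Soat1 included, the summed level was 1644 and 1489.9 CPM in dermal adipocytes against 2050.2 and 1773 CPM in inguinal adipocytes. Mgst1 (-0.32), Pparg (0.02) and Plin2 (-0.60), which adipocytes also express, led the list. The sebocyte receptor gene Mc5r measured 3.64 and 5.22 CPM in dermal adipocytes against 2.96 and 2.13 CPM in inguinal adipocytes, and did not pass (0.69, adjusted p = 0.158), and the wax synthase gene Awat2 stood at 0.455 CPM or less. Keratinocyte markers summed to 87.7 and 55.7 CPM in dermal adipocytes against 26.5 and 18.8 CPM in inguinal adipocytes. The part of these cells in the Soat1 difference was not tested.

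The other synthesis genes did not pass, and their libraries of one depot differed from each other. Over the 17 synthesis genes, 2 were higher in inguinal libraries and 0 in dermal libraries by limma, edgeR and DESeq2, with 3 at an unadjusted p below 0.05. Over all tested genes, limma called 8.8% in the inguinal direction and 7.56% in the dermal direction. An unadjusted limma p below 0.05 was held by 4164 of the 12797 tested genes. The mean log2 fold change of the 17 was -0.95 without inguinal replicate 2 and 0.22 without inguinal replicate 1, each leaving a single inguinal library. With all libraries kept, the median log2 fold change of the 17 was -0.44, with 15 negative estimates, against a median of 0.02 over all tested genes. Among the mevalonate genes, the thiolase gene Acat2 measured 90.9 and 67.2 CPM in dermal adipocytes against 183 and 72.1 CPM in inguinal adipocytes. Inguinal replicate 1 stood apart, and the other 3 libraries lay between 67.2 and 90.9 CPM. Its mouse paralogue Acat3 stood at 6.45 to 8.70 CPM.

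Pmvk, encoding phosphomevalonate kinase, followed the same order, at 79.6 and 58.8 CPM in dermal adipocytes against 161 and 64.3 CPM in inguinal adipocytes. Hmgcs1, which encodes the cytosolic synthase of hydroxymethylglutaryl-CoA, was the most abundant synthesis gene at 507 and 439.7 CPM in dermal adipocytes against 616 and 406 CPM in inguinal adipocytes. The depots overlapped for both genes, and the interval of the Hmgcs1 difference ran from -0.61 to 0.44 on the log2 scale. Mvd, encoding the decarboxylase that closes the mevalonate steps, measured 12.4 and 5.98 CPM in dermal adipocytes against 14.9 and 5.14 CPM in inguinal adipocytes, so that its replicates differed more than its depots.

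Mvk, encoding mevalonate kinase, had the opposite sign. It measured 27.6 and 23.3 CPM in dermal adipocytes against 20.9 and 11.2 CPM in inguinal adipocytes, with dermal values above inguinal ones. The log2 fold change was 0.71 (SE 0.29) and did not pass (adjusted p = 0.151). It was 1.15 without inguinal replicate 1, 0.28 without inguinal replicate 2, 0.60 without dermal replicate 1 and 0.83 without dermal replicate 2.

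Of the isoprenoid genes, the isomerase gene Idi1 measured 60.0 and 39.9 CPM in dermal adipocytes against 124.8 and 52.4 CPM in inguinal adipocytes. Fdps, encoding farnesyl diphosphate synthase, measured 53.7 and 23.2 CPM in dermal adipocytes against 84.6 and 21.2 CPM in inguinal adipocytes. Both were highest in inguinal replicate 1, and the replicate 2 libraries of the depots were close for Fdps. The squalene epoxidase gene Sqle, at 23.9 and 11.0 CPM in dermal adipocytes against 45.4 and 14.7 CPM in inguinal adipocytes, and the lanosterol synthase gene Lss, at 45.9 and 25.7 CPM against 72.9 and 21.4 CPM, showed the same order of replicates. For these 4 genes the adjusted p ranged from 0.268 for Idi1 to 0.835 for Lss.

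After lanosterol, the demethylase gene Cyp51 measured 93.4 and 60.4 CPM in dermal adipocytes against 184 and 75.4 CPM in inguinal adipocytes, and Nsdhl, which encodes a sterol dehydrogenase, 64.4 and 39.9 CPM against 101.8 and 33.3 CPM. Dhcr7, whose enzyme reduces the last double bond of the main route, measured 11.3 and 7.97 CPM in dermal adipocytes against 18.1 and 3.97 CPM in inguinal adipocytes. It had both its highest and its lowest value in inguinal libraries, from 214 and 41 reads. The desaturase gene Sc5d measured 145 and 139 CPM in dermal adipocytes against 273 and 162 CPM in inguinal adipocytes, without overlap, and did not pass (log2 fold change -0.56, SE 0.24, adjusted p = 0.164). Leaving out inguinal replicate 1 gave -0.19, and leaving out inguinal replicate 2 gave -0.94. The reductase gene Tm7sf2 (6.19 to 13.3 CPM) was highest in inguinal replicate 1, and so was the isomerase gene Ebp (40.1 to 58.4 CPM). Cyp51 shares 166 exonic bases with Akap9 on the opposite strand, and Akap9 stood between 174 and 210.2 CPM in every library.

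**Figure D2:**
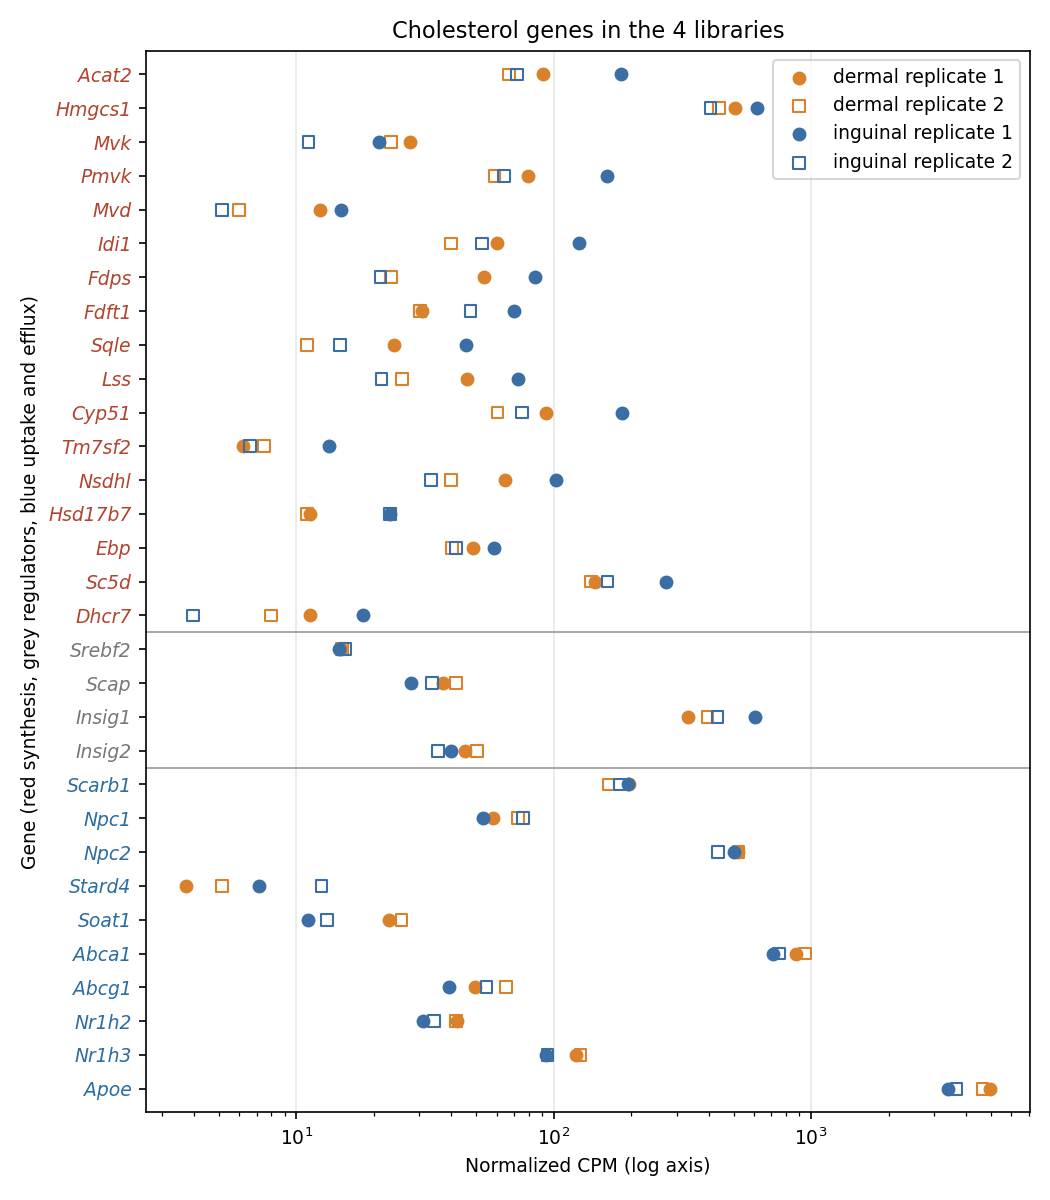
Normalized CPM of the 31 genes in the 4 libraries, 1 point per library on a log axis, circles for replicate 1 and squares for replicate 2. For most synthesis genes (red) inguinal replicate 1 lies farthest to the right, as for Acat2 at 183 CPM, while points of most uptake and efflux genes (blue) lie closer together, as for Nr1h3, with Stard4 (3.73 to 12.5 CPM) and Soat1 (11.1 to 25.6 CPM) spread wider.

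The libraries of one depot differed for synthesis genes in the same direction in both depots. In replicate 1, 15 of the 17 were higher than in replicate 2 of both depots, where 30.3% of all tested genes were. In each depot singly it was 16 of 17, against 49.1% of all tested genes in dermal and 45.9% in inguinal libraries. The exceptions were Tm7sf2, lower in dermal replicate 1 than in dermal replicate 2 (6.19 and 7.49 CPM), and Hsd17b7, at 23.1 and 23.1 CPM in the inguinal libraries. The median difference of replicate 1 minus replicate 2 over the 17 genes was 0.43 in dermal and 1.28 in inguinal libraries on the log2 scale, against -0.01 and -0.04 over all tested genes. In inguinal libraries 10 of the 17 differed by at least 1 on that scale, where 1.13% of all tested genes did, and in dermal libraries 2 did, Fdps and Sqle, where 0.414% did. The largest inguinal ratios were 4.55 for Dhcr7, 3.99 for Fdps and 3.40 for Lss. The difference of replicate 1 minus replicate 2 was larger in inguinal than in dermal libraries for 16 of the 17 genes, where it was for 6302 of the 12797 tested genes. With 1 library for each depot and number, these differences have no test.

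Uptake and efflux genes did not share this. In both depots 1 of 10, Scarb1, was higher in replicate 1 and 6 were higher in replicate 2, where 35.3% of all tested genes were higher in replicate 2. None of the 10 differed by 1 or more on the log2 scale between libraries of one depot. Stard4, encoding a cytosolic sterol carrier, had the largest excess in replicate 2, at 0.41 in dermal and 0.76 in inguinal libraries, from 41 to 129 reads. Across the 31 genes, the replicate differences of the depots had a Pearson correlation of 0.86, against 0.46 across all tested genes. Within the synthesis genes alone it was 0.75. These values describe points that share the same 4 libraries and are not independent replicates.

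**Figure D3:**
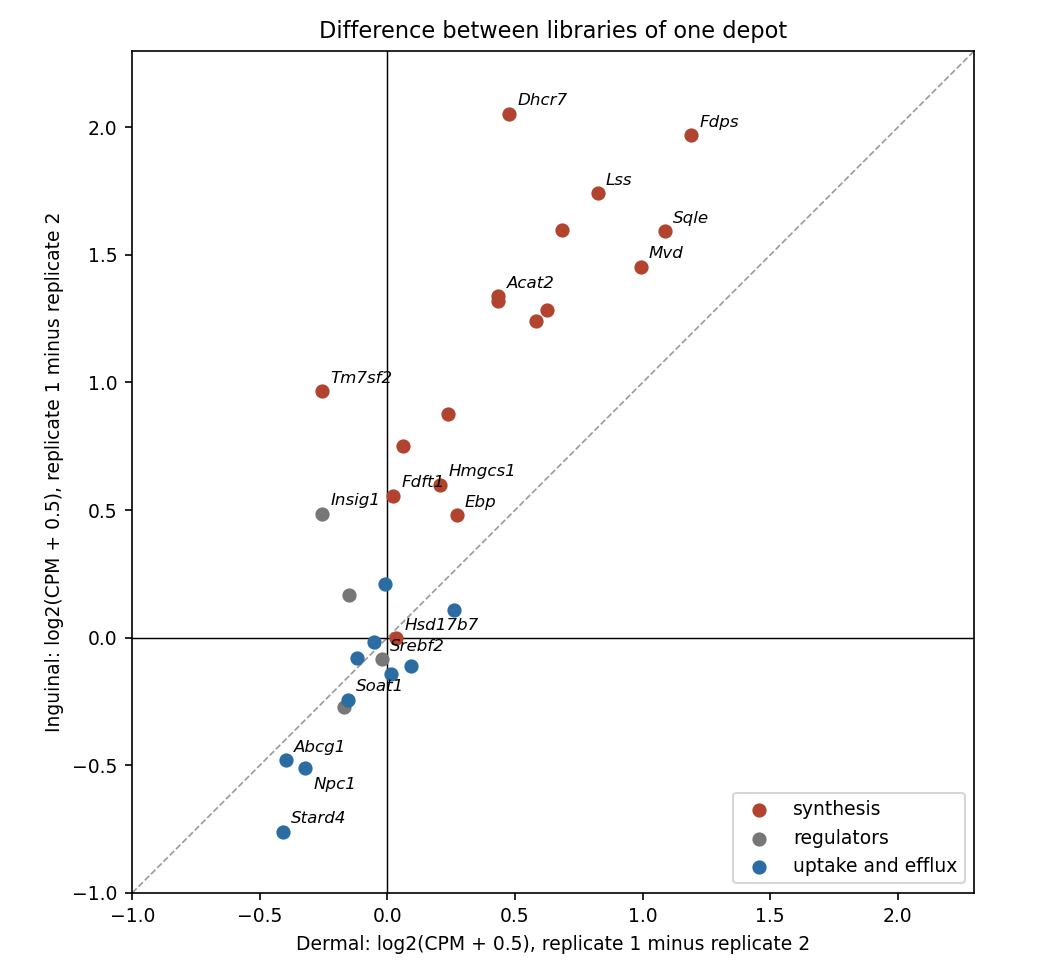
Difference of replicate 1 minus replicate 2 on the log2(CPM + 0.5) scale in dermal (horizontal) and inguinal libraries (vertical), 1 point per gene, with a dashed line of equality. Most synthesis genes (red) lie at the upper right and above the line, with Dhcr7 highest at 2.05, Hsd17b7 lies near the origin, and uptake and efflux genes (blue) lie between -0.76 and 0.26 on both axes.

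Other transcripts also differed between replicate numbers. Fibroblast markers, led by Col3a1, Col1a1 and Dcn, summed to 4750 CPM in dermal replicate 1 and 10393 CPM in dermal replicate 2, and to 3243 and 5445 CPM in the inguinal replicates. Of 12 target genes of Srebf1 in fatty acid synthesis, 11 were higher in replicate 1 of both depots, where 30.3% of all tested genes were. The median differences of the 12 were 0.98 in dermal and 1.26 in inguinal libraries. Acly, which makes cytosolic acetyl-CoA, measured 3117 and 797 CPM in dermal adipocytes against 7867 and 1569 CPM in inguinal adipocytes. Acaca, encoding the carboxylase that makes malonyl-CoA, measured 4508 and 2133 CPM in dermal adipocytes against 8024 and 3257 CPM in inguinal adipocytes. The fatty acid synthase gene Fasn measured 17787 and 8561 CPM against 19109 and 8180 CPM. The desaturase gene Scd1, at 34813 and 36331 CPM against 62455 and 43326 CPM, was not higher in dermal replicate 1. Between depots 0 of these 12 passed by limma or edgeR and 3 passed by DESeq2. Over all 12797 tested genes, limma called 2094, edgeR 2056 and DESeq2 1985. An unadjusted limma p below 0.05 was held by 2 of the 12, where 4164 of the 12797 tested genes held it. The depot estimates were negative for 11 of the 12, where they were for 6218 of the 12797 tested genes. The median of the 12 was -0.65. Whether cell composition, animals or handling differed between the replicate numbers was not tested.

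Within replicate number 1, dermal values were below inguinal values for 16 of 17 synthesis genes, where 49.5% of all tested genes were. Within replicate number 2, they were below for 9 of 17, where 48.8% were. In both numbers they were below for 9 of 17, against 38.5%. The mean over the 17 genes was 5.43 and 4.97 in dermal replicates 1 and 2 and 6.15 and 4.98 in inguinal replicates 1 and 2, on the log2(CPM + 0.5) scale. The dermal minus inguinal difference of these means was -0.71 in number 1 and -0.01 in number 2, and -0.36 over both. Without inguinal replicate 1 it was 0.22 and without inguinal replicate 2 it was -0.95, so the direction rested on that library. Hsd17b7 (-0.999 and -1.03), Fdft1 (-1.17 and -0.64), Sqle (-0.91 and -0.41) and Idi1 (-1.05 and -0.39) were below in both numbers, and Dhcr7 changed sign (-0.66 and 0.92).

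**Figure D4:**
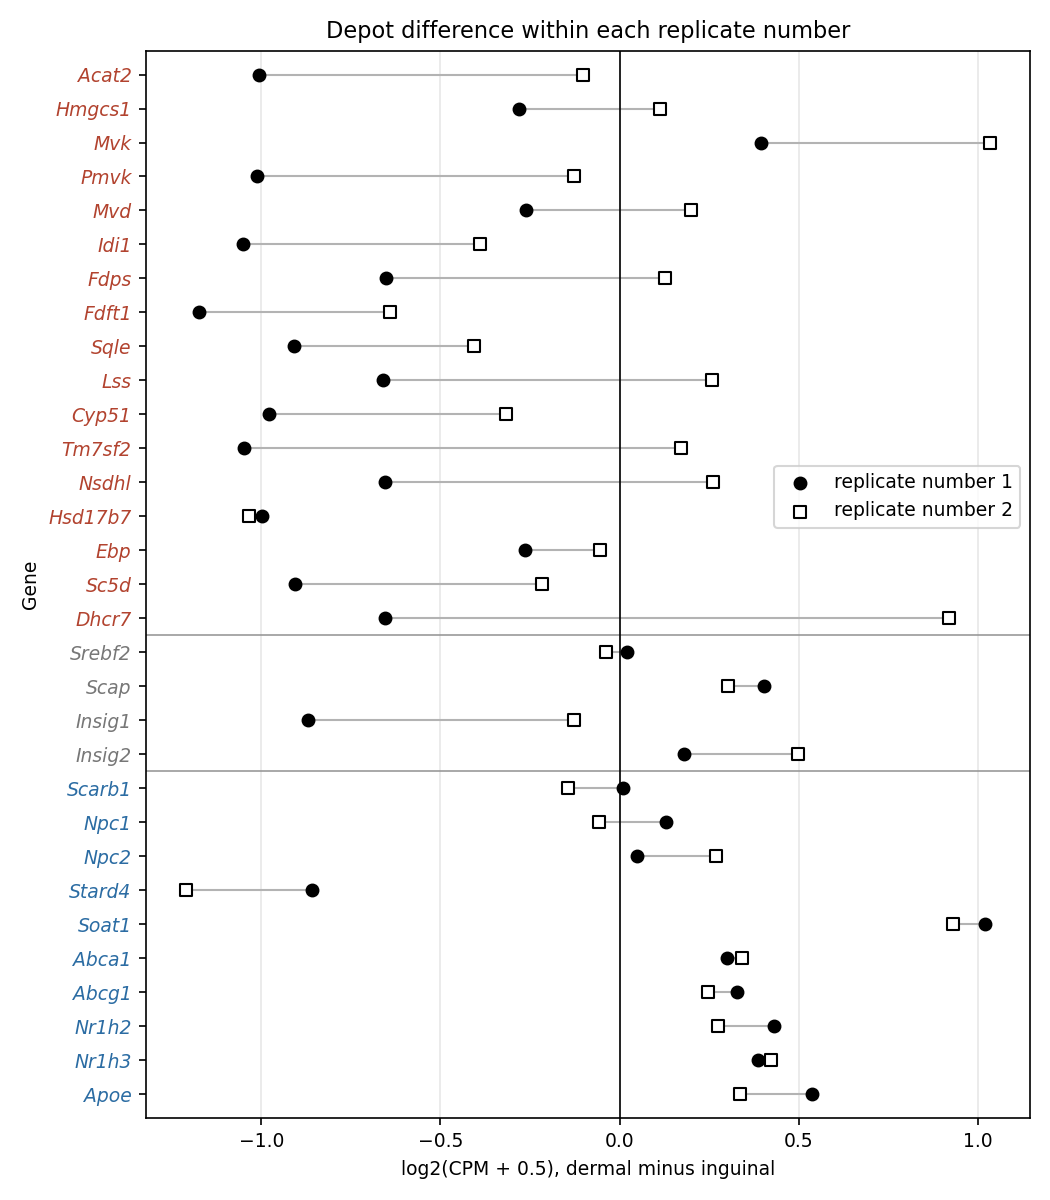
Dermal minus inguinal difference on the log2(CPM + 0.5) scale within replicate number 1 (filled circles) and number 2 (open squares) for each of the 31 genes. Circles and squares of synthesis genes other than Hsd17b7 and, less so, Ebp lie apart, as for Dhcr7 at -0.66 and 0.92, while those of the efflux genes Abca1 and Nr1h3 lie next to each other above 0.

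Efflux genes had small positive estimates that did not pass singly. Apoe, encoding the lipoprotein that accepts exported cholesterol, was the most abundant member at 4939 and 4638 CPM in dermal adipocytes against 3402 and 3675 CPM in inguinal adipocytes (log2 fold change 0.44, SE 0.20, adjusted p = 0.187). Abca1, the exporter to lipid-poor apolipoprotein, measured 874 and 949 CPM in dermal adipocytes against 709 and 749 CPM in inguinal adipocytes (0.32, SE 0.14, adjusted p = 0.174). Abcg1, which exports to mature lipoprotein particles, measured 49.2 and 65.1 CPM against 39.1 and 54.8 CPM (0.29, SE 0.21), and its depots overlapped. Its estimate ran from 0.047 without inguinal replicate 1 to 0.53 without inguinal replicate 2.

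Nr1h3, encoding liver X receptor alpha, measured 122 and 127 CPM in dermal adipocytes against 93.4 and 94.6 CPM in inguinal adipocytes. Its replicates were close and its depots separate, and it came nearest to the threshold among these genes (0.41, SE 0.12, adjusted p = 0.0663). Nr1h2, encoding the beta receptor, measured 42.1 and 41.6 CPM in dermal adipocytes against 31.1 and 34.3 CPM in inguinal adipocytes (0.35, SE 0.14, adjusted p = 0.133). All 5 efflux genes were higher in dermal libraries within both numbers, where 40.3% of all tested genes were. By limma, edgeR or DESeq2 0 of 5 passed, where 16.4% of all tested genes passed by limma. An unadjusted limma p below 0.05 was held by 2 of the 5, where 4164 of the 12797 tested genes held it. Macrophages express Apoe, Abca1, Abcg1 and Nr1h3 at high levels, and macrophage markers were higher in the same libraries, with a median log2 fold change of 1.56. Their part in these estimates was not tested.

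The uptake and transport genes Scarb1, Npc1 and Npc2 had smaller depot estimates than the efflux genes, at -0.07, 0.04 and 0.16. Scarb1, the receptor for high density lipoprotein, measured 195 and 163 CPM in dermal adipocytes against 194 and 180.2 CPM in inguinal adipocytes, with an interval of the difference from -0.41 to 0.27 on the log2 scale. Npc1, the lysosomal membrane exporter, measured 58.1 and 72.8 CPM against 53.0 and 75.8 CPM, with an interval from -0.47 to 0.54. Its luminal partner Npc2 measured 520 and 523 CPM in dermal adipocytes against 502 and 434 CPM in inguinal adipocytes, with an interval from -0.18 to 0.49. These intervals exclude a difference of 1 on the log2 scale.

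Stard4 measured 3.73 and 5.12 CPM in dermal adipocytes against 7.18 and 12.5 CPM in inguinal adipocytes, from 41 to 129 reads. Both inguinal values lay above both dermal values. Its log2 fold change of -1.03 (SE 0.31) did not pass (adjusted p = 0.0719), and it was -1.41 without inguinal replicate 1 and -0.65 without inguinal replicate 2.

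Over the 10 uptake and efflux genes, 1 passed as higher in dermal adipocytes and 0 passed as higher in inguinal adipocytes, where 7.56% and 8.8% of all tested genes did. The median log2 fold change was 0.30 with 8 positive estimates. Values were separate and higher in dermal libraries for 6 of the 10, where 31.6% of all tested genes were. Dermal values were higher for 9 of 10 within number 1, against 50.5% of all tested genes, and for 7 of 10 within number 2, against 51.2%. The mean over the 10 genes was 6.92 and 7.03 in dermal and 6.68 and 6.89 in inguinal libraries, a difference of means of 0.23 in number 1, 0.14 in number 2 and 0.19 over both. It was 0.086 without inguinal replicate 1 and 0.29 without inguinal replicate 2. Synthesis minus uptake and efflux was -1.48 and -2.06 in dermal and -0.54 and -1.91 in inguinal libraries, a value in which inguinal replicate 1 stood apart. The depot difference of this contrast was -0.95 in number 1 and -0.15 in number 2. Over both it was -0.55. Leaving out inguinal replicate 1 gave 0.13, and leaving out inguinal replicate 2 gave -1.23. With 2 libraries a depot, an exact permutation test could not give a p below 0.333, and no test was made.

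The regulators did not pass, with 0 of 4 by limma, edgeR or DESeq2, where 16.4% of all tested genes passed by limma. An unadjusted limma p below 0.05 was held by 1 of 4, Insig1, where 4164 of the 12797 tested genes held it. Srebf2 was level across libraries, at 14.8 and 15.1 CPM in dermal adipocytes against 14.6 and 15.5 CPM in inguinal adipocytes. Its RNA level does not measure activation of the protein. Scap measured 37.0 and 41.7 CPM against 27.9 and 33.7 CPM (0.35, SE 0.16, adjusted p = 0.183). Insig1, whose own gene is known to respond to sterol regulatory element binding proteins, measured 332 and 396 CPM in dermal adipocytes against 606 and 433 CPM in inguinal adipocytes, highest in inguinal replicate 1 (-0.50, SE 0.20, adjusted p = 0.138). It was -0.26 when inguinal replicate 1 was left out, and -0.74 when inguinal replicate 2 was. Insig2 measured 45.1 and 50.2 CPM in dermal adipocytes against 39.8 and 35.4 CPM in inguinal adipocytes, the opposite order of depots (0.34, SE 0.14, adjusted p = 0.158).

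Per kilobase of exon, with lengths from GENCODE M21, Apoe stood highest at 2605 CPM per kb in dermal and 1925 CPM per kb in inguinal libraries. In dermal libraries Npc2 (158 CPM per kb), Hmgcs1 (136), Insig1 (135) and Abca1 (88.8) followed. In inguinal libraries the order was Insig1 (193 CPM per kb), Hmgcs1 (147), Npc2 (142), Scarb1 (74.2) and Abca1 (71.0). Stard4 was lowest in dermal libraries at 0.851 CPM per kb (1.89 in inguinal), and Soat1 was lowest in inguinal libraries at 1.45 CPM per kb (2.90 in dermal). Hmgcs1 was the only synthesis gene above 100 CPM per kb, and Pmvk came next at 40.4 and 65.8 CPM per kb.

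Of 41 other genes of the pathway in the table, 35 were tested, and 4 rose in dermal libraries (7.56% of all tested genes did) and 3 in inguinal libraries (8.8% did), with a median log2 fold change of 0.08. Lrp1, a large endocytic receptor for remnant lipoproteins, measured 1116 and 1085 CPM in dermal adipocytes against 404 and 455 CPM in inguinal adipocytes (1.36, SE 0.14, adjusted p = 0.00311). Pltp, the phospholipid transfer protein and a liver X receptor target, measured 90.7 and 89.7 CPM against 34.1 and 51.0 CPM (1.10, adjusted p = 0.0168). Nceh1, a hydrolase of cholesteryl esters, stood at 10.6 and 10.8 CPM against 5.15 and 5.04 CPM (0.999, adjusted p = 0.0198), and the scavenger receptor gene Msr1 at 14.0 and 12.1 CPM against 4.73 and 5.04 CPM (1.33). Msr1 is itself a macrophage gene. Macrophage markers were higher in the same dermal libraries, and their part in these 4 differences was not tested.

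In the other direction, Vldlr, the receptor for very low density lipoprotein, measured 28.4 and 49.0 CPM in dermal adipocytes against 98.6 and 103 CPM in inguinal adipocytes (-1.42, SE 0.25, adjusted p = 0.0150). Olr1, a receptor for oxidized lipoprotein known from endothelium, measured 0.637 and 0.759 CPM against 8.36 and 4.46 CPM (-2.47), and Gramd1b, which moves plasma membrane cholesterol to the endoplasmic reticulum, 30.7 and 30.4 CPM against 55.6 and 48.2 CPM (-0.75, adjusted p = 0.0184). Endothelial markers were higher in the same inguinal libraries, and their part in the Vldlr and Olr1 differences was not tested. The abundant genes Cav1 (0.26), Srebf1 (0.58) and Acat1 (-0.32) did not pass.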

How the data were processed

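Sample titles gave the groups. Per the labels' protocols, DNase-treated RNA was made into libraries that keep strand. Tools named, per the submitters' processing notes, were Picard 1.127, TopHat2 2.0.12, Subread 1.4.6 with featureCounts, edgeR, FastQC, bcl2fastq and mm10, without roles or settings. The deposited table holds a signal per gene, a CPM to which the authors applied 1 more scaling factor per library. All values (100%, within 0.001) were whole multiples of 0.0844 to 0.0969 CPM, the worth of 1 read, so reads were recovered. A level of 3 reads was 0.253 to 0.291 CPM.

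limma 3.58.1 (R 4.3.3) was fitted to log2 values of CPM plus 0.5, two-sided and with a trend on intensity, for 12797 genes that reached 1 CPM in 2 libraries. Adjustment was by Benjamini-Hochberg over all of these genes. It called 2094 genes, where edgeR 4.0.16 on the recovered reads called 2056 and DESeq2 1.42.0 called 1985. The members and lists were chosen with earlier results of these data known. Named genes were all members, the other pathway genes that passed, and the most abundant genes of each list. Plin1, Lep, Mc5r, Awat2, Ctsb, Akap9 and Acat3 were added after values were seen. Gene positions are from GENCODE M21 on GRCm38.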

Additional observations from a re-analysis of the deposited data

How the results depend on the processing

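All 14 alternatives were run. Across all genes, 4726 were called with replicate number as a block, and between 1023 (without dermal replicate 1) and 2636 (without inguinal replicate 1) with a library left out. Of the 31 members, 3 were called in the main fit, with the other pseudocounts and filters, with library totals alone, and with edgeR and DESeq2. The count was 2 without the intensity trend, 5 with quantile normalization (Stard4 and Nr1h3 added) and 15 with the replicate block. With a library left out the count ran from 0 without dermal replicate 2 (limma, with 6 at an unadjusted p below 0.05), through 1 without dermal replicate 1 and 6 without inguinal replicate 1, to 15 without inguinal replicate 2, of which 13 were synthesis genes higher in inguinal libraries. Each fit with a library left out kept a single library in that depot. Its spread came from the other depot alone, so these counts do not measure the spread of both depots. The replicate numbers share no stated animal, batch or day. Same-numbered libraries deviated together with a correlation of 0.46 across all tested genes, which with 2 pairs does not establish a pairing, so the block is an alternative only.

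Signs turned for members that had not passed. Dhcr7 was -0.21 with edgeR and -0.21 with DESeq2, Hmgcs1 was 0.081 with quantile normalization, Mvd was 0.049 and Srebf2 was 0.072 with library totals alone, and Scarb1 was 0.015 with library totals alone and 0.085 with quantile normalization. With libraries left out in turn, the log2 fold changes ran for Acat2 from -1.22 to 0.12, Dhcr7 from -0.89 to 1.16, Ebp from -0.40 to 0.081, Fdps from -1.25 to 0.72, Hmgcs1 from -0.38 to 0.22, Lss from -1.07 to 0.67, Mvd from -0.76 to 0.70, Npc1 from -0.22 to 0.29, Nsdhl from -0.997 to 0.60, Pmvk from -1.23 to 0.090, Scarb1 from -0.20 to 0.062, Sqle from -1.45 to 0.14, Srebf2 from -0.051 to 0.033 and Tm7sf2 from -0.92 to 0.044. With libraries left out, the mean over the synthesis genes ran from -0.95 to 0.22, that over the uptake and efflux genes from 0.086 to 0.29, and their contrast from -1.23 to 0.13. At 41 reads, as in the lowest library of Dhcr7 and Stard4, counting error alone limits what can be told between libraries.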
